A study of Mus musculus with 45 samples.

Results

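A set of 10 genes that the tumour suppressor p53 is known to switch on was followed through 4 RNA-seq experiments on mouse embryonic stem cells (mESCs): Cdkn1a, Mdm2, Trp53inp1, Ccng1, Sesn2, Bbc3, Pmaip1, Bax, Phlda3 and Fas. They were chosen by name, as 10 of the 55401 genes in the tables, and all 10 were found in every table. The series holds 45 libraries in 15 groups of 3. In EHMT2-dTAG cells, made from the KH2 line (BL6/129), a degron tag sits on the histone methyltransferase EHMT2, so that the compound dTAG-13 removes the protein. Such cells, 3 clones in all, were given DMSO or dTAG-13 for 24 h or 7 d in the time course (12 libraries). In the washout experiment (9 libraries) they had DMSO for 15 d, dTAG-13 for 15 d, or dTAG-13 for 7 d followed by 8 d in DMSO, a group called Recovery. In the sorting experiment (12 libraries) EHMT2-dTAG cells that also carry a MERVL-GFP reporter, which marks 2-cell-like cells (2CLCs), had DMSO or dTAG-13 for 72 h and were separated into GFP-negative mESCs and GFP-positive 2CLCs, and these libraries were made from low input. The Dppa4 experiment (12 libraries) used mESCs of the J1 line, either wild type (WT) or knocked out for Dppa4 with CRISPR/Cas9 (KO), 3 clones of each by the labels, given DMSO or the compound UNC0638 for 48 h, which blocks the enzymes EHMT1 and EHMT2. The replicate numbers are not tied to clones there. The EHMT2-dTAG cells were grown on mitotically inactivated mouse embryonic fibroblasts, and the tagged Ehmt2 alleles were present in the DMSO groups too.

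p53 (gene Trp53) is a transcription factor that is held low by MDM2, a ubiquitin ligase, and accumulates after DNA damage and other stress. Its targets act in cell cycle arrest (Cdkn1a), in feedback (Mdm2, Ccng1), in metabolism and antioxidant defence (Sesn2), in autophagy and apoptosis (Trp53inp1), and in cell death at the mitochondrion (Bbc3, Pmaip1, Bax) or the cell surface (Fas). In mESCs p53 is abundant, and it can activate Dux, the transcription factor that drives the 2-cell-like programme. The comparisons ask how far the target genes moved when EHMT2 was removed or inhibited, when cells entered the 2-cell-like state, and when Dppa4 was absent.

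p53 binds a 20-base consensus element made of a pair of decamers. RefSeq promoter windows of build GRCm38.p6, 250 bases before to 50 after a transcription start, were at hand for 8 of the 10 genes (11 windows), and were searched for this element without a spacer. The element reads the same on both strands. The closest stretches are shown because they come nearest to the letters that p53 reads, in the direction of the gene, with the 20-base stretch in capitals and 20 bases on either side.

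Cdkn1a: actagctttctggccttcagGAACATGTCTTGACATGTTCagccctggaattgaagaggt

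Ccng1: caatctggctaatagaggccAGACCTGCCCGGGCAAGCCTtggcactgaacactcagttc

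Bbc3: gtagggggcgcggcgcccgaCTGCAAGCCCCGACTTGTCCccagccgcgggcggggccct

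Bax: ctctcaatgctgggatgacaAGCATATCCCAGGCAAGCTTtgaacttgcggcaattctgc

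The Cdkn1a stretch (chr17:29090928-29090947, plus strand) begins 51 bases before the upstream start of the gene and departs from the consensus at 1 base. The Ccng1 stretch (chr11:40755462-40755481, minus strand) begins 195 bases before the start and also departs at 1 base. Among all 32851 promoter windows, 29 (0.0883%) held a stretch this close. Bbc3 (chr7:16309486-16309505, plus strand) and Bax (chr7:45467090-45467109, minus strand) held stretches with 3 departures, as did 6.29% of all windows. Every position of the element counted alike, and all 3 departures of Bax fall in its first decamer. In the windows of Mdm2, Sesn2, Phlda3 and Fas the best stretch departed at 5 bases. These matches describe letters in short windows and were not measured as binding, and the number of departures shown was chosen after the windows were read.

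The tables of the time course, the washout and the sorting experiment give the authors' mean of normalized counts for each group, so their values stand without error and without a test, and differences are log2 ratios of group means with 1 added to each. Genes with a mean of at least 10 in either group of a comparison were kept, and each table was scaled on its own. The Dppa4 table gives each library, with 8399885 to 12710949 gene reads, and was tested with limma across 17258 genes. Dppa4 had 0 reads in all KO libraries and a mean of 830 ± 115 normalized counts (SD, n = 3) in WT DMSO. dTAG-13 removes protein, so Ehmt2 RNA is no check of it. Pluripotency markers were present in every group, with a sum over 10 genes of 39020 in DMSO 2CLCs, 38890 in dTAG 2CLCs and 54250 to 102000 in the other 9 group means. The 9 markers of 2-cell-like cells in these tables summed to 135900 and 208700 in the sorted GFP-positive groups against 747 and 7546 in the GFP-negative ones. Of 10 fibroblast markers, Lum was at or near 0 and Dcn low in all groups, but others were well above that. The 10 together summed to 4822 normalized counts in DMSO 2CLCs, the lowest of the group means, and to 17840 in DMSO at 24 h, the highest. In WT DMSO of the Dppa4 experiment Fn1 had a mean of 3075 and Vim of 2987.

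After 7 d of dTAG-13 all 10 p53 target genes had a lower group mean than after 7 d of DMSO, where 48.6% of the 18602 genes kept were lower. Cdkn1a (chr17:29090976-29100727, plus strand), which encodes the cell cycle inhibitor p21, had 2826 normalized counts in DMSO and 1678 in dTAG-13 at 7 d, a log2 ratio of -0.75. At 24 h the values were 3380 and 3175, a log2 ratio of -0.09. The gap between the treatments at 7 d was thus the wider. Between the DMSO cultures, 7 d against 24 h, the log2 ratio of Cdkn1a was -0.26, and 4 of the 10 genes were higher at 7 d, where 50.2% of genes were, with none past 2-fold (2.36% of genes).

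Mdm2 (chr10:117688875-117710758, minus strand), the ligase that limits p53, had 4356 normalized counts in DMSO and 3442 in dTAG-13 at 24 h, and 4000 and 2946 at 7 d. Its log2 ratio was -0.34 and then -0.44. Ccng1 (chr11:40748552-40755311, minus strand), encoding cyclin G1, had 7604 and 6255 at 24 h and 6615 and 5430 at 7 d. For Ccng1 the ratio was -0.28 at both times, so for these feedback genes most of the gap was in place at 24 h.

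Of the genes that act in cell death, Bbc3 (chr7:16308393-16318205, plus strand), which encodes the BH3-only protein PUMA, had 768 and 770 normalized counts at 24 h in DMSO and dTAG-13, and 920 and 619 at 7 d, a log2 ratio of -0.57. Pmaip1 (chromosome 18), which encodes the BH3-only protein NOXA, had 2497 and 2869 at 24 h and 2526 and 1789 at 7 d. Its log2 ratio went from 0.20 to -0.50. Bax (chr7:45461697-45466898, minus strand), the pore-forming effector of the same pathway, had 676 and 560 at 24 h, a ratio of -0.27, and 657 and 648 at 7 d, a ratio of -0.02. Fas (chr19:34290666-34327772, plus strand), a death receptor, was near the floor, with 11.6 and 17.0 at 24 h and 16.7 and 9.3 at 7 d.

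Trp53inp1 (chr4:11156431-11174379, plus strand), which takes part in autophagy and apoptosis, had 8525 and 8522 normalized counts at 24 h and 8646 and 6333 at 7 d, a log2 ratio of -0.45. Sesn2 (chr4:132492032-132510501, minus strand), a stress-induced inhibitor of mTORC1 signalling, had a ratio of -0.10 at 24 h and -0.18 at 7 d, and Phlda3 (chr1:135766119-135769136, plus strand), an inhibitor of AKT signalling, of -0.37 and -0.26. For Bax and Phlda3 the gap was thus the wider at 24 h. None of the 10 genes passed 2-fold at 24 h, where 5.7% of genes did, nor at 7 d, where 9.95% did. The median log2 ratio of the 10 genes was -0.445 at 7 d beside 0.01 over all genes kept, and -0.09 at 24 h beside 0.00. At 24 h 3 of the 10 were higher, where 50.7% of genes were, or 2 when the group means were scaled to equal totals or centred on the median gene. In bulk cultures such as these, fewer cells of a type and less RNA per cell cannot be told apart.

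**Figure D1:**
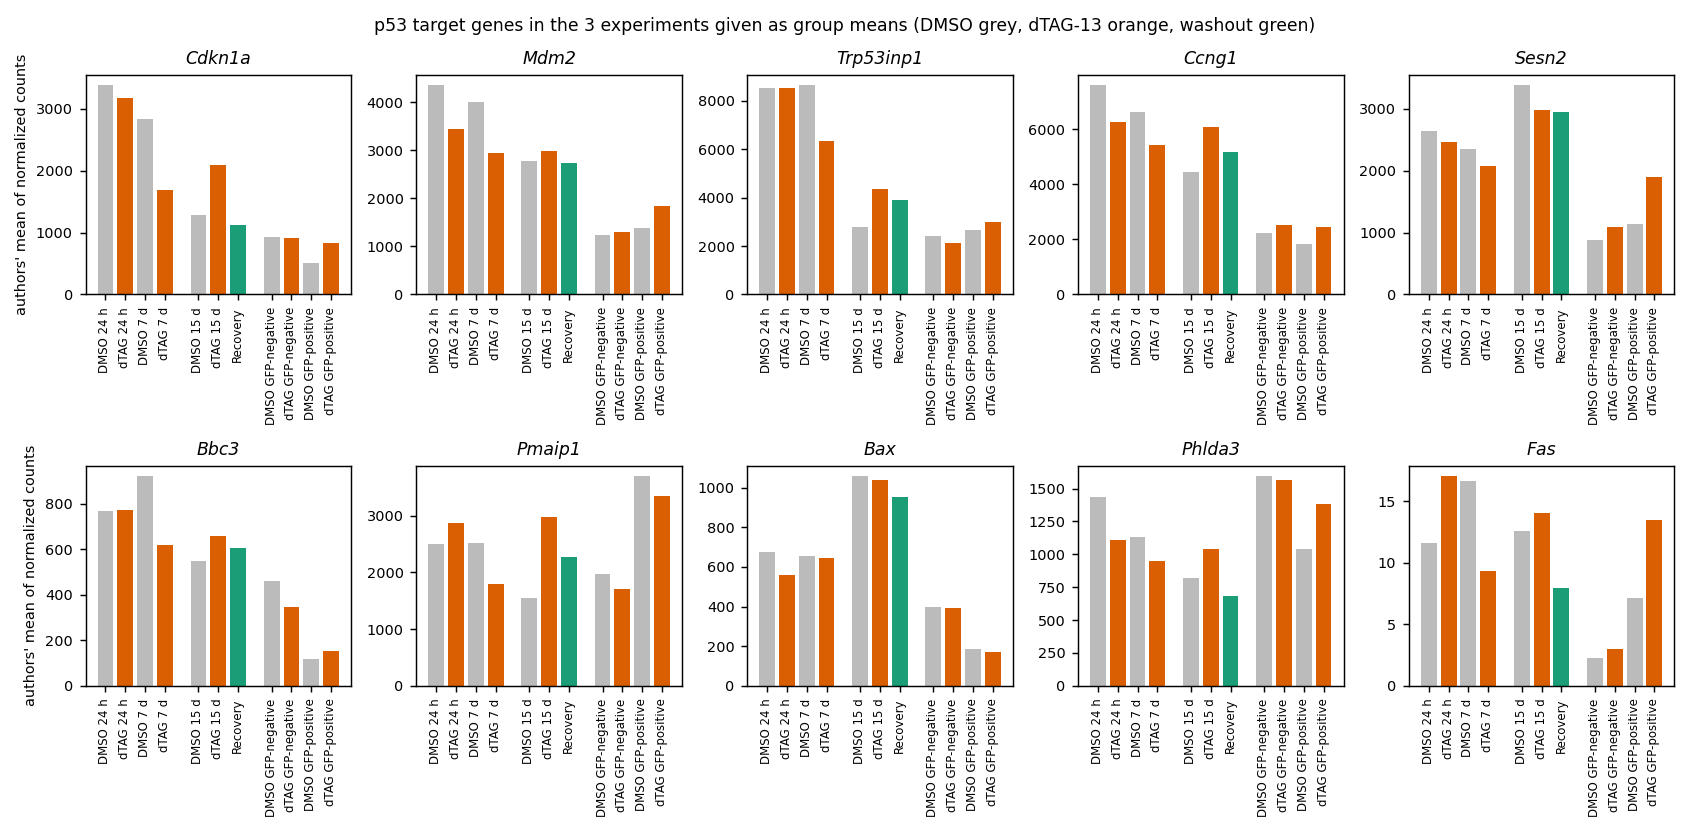
Authors' mean of normalized counts (vertical axis) for each p53 target gene in the 11 groups of the time course, the washout and the sorting experiment. Bars are DMSO in grey, dTAG-13 in orange and Recovery in green, with no error because each bar is a group mean. At 7 d every orange bar is below its grey neighbour, and at 15 d 8 of 10 are above it.

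After 15 d the order was the opposite for most of these genes. With dTAG-13, 8 of the 10 had a higher group mean than with DMSO, where 47.7% of the 17869 genes kept were higher, and the median log2 ratio was 0.30 beside -0.02 over all genes. Cdkn1a had 1283 normalized counts in DMSO and 2094 in dTAG-13, a log2 ratio of 0.71. Pmaip1 had 1543 and 2977, a ratio of 0.95. Trp53inp1 had 2789 and 4372, a ratio of 0.65, and Ccng1 4450 and 6071, a ratio of 0.45. The arrest gene, a death gene, the autophagy gene and cyclin G1 were thus each higher in the degrader group at 15 d and lower in it at 7 d.

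The remaining genes differed less at 15 d. Phlda3 had a log2 ratio of 0.34, Bbc3 of 0.26, Fas of 0.15 and Mdm2 of 0.10. Sesn2 was lower, at -0.19. Bax, at -0.03, was the only gene of the 10 whose direction turned at 15 d under another scaling, to 0.04 with equal totals. None passed 2-fold as deposited, where 6.33% of genes did, and with equal totals Pmaip1 did, at 1.02. The 7 d and 15 d cultures belong to separate experiments with their own controls, and the change of direction between them was not tested.

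In the Recovery group all 10 genes had a lower mean than in the dTAG-13 group at 15 d, where 45.9% of genes were lower, also under each of the other scalings. The median log2 ratio was -0.20 beside 0.03 over all genes, and Sesn2 hardly differed, at -0.01 (2956 and 2976). Mdm2, Bbc3 and Bax were each at -0.12, and Fas, near the floor, at -0.75. Cdkn1a had 1119 normalized counts in Recovery, which is a log2 ratio of -0.90 against dTAG-13 and of -0.20 against DMSO. Phlda3 had 685, with ratios of -0.60 and -0.26. These genes were thus at or under the DMSO mean after washout. Pmaip1 had 2265, with ratios of -0.39 and 0.55, and Trp53inp1 had 3885, with -0.17 and 0.48, and Ccng1 had 5185, with -0.23 and 0.22. These 3 lay between the DMSO and dTAG-13 means. No gene of the 10 passed 2-fold against dTAG-13, where 8.42% of genes did, or against DMSO, where 2.85% did and where 4 of the 10 were higher beside 48.2% of genes.

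Fibroblast markers moved in this experiment too. Their sum over 10 genes was 13430 in DMSO, 16350 in dTAG-13 and 7808 in Recovery, and all 8 of them that were kept were lower in Recovery than in either other group, with a median log2 ratio of -1.31 against dTAG-13. In the time course their sum was 17840 and 15710 at 24 h and 12550 and 14250 at 7 d in DMSO and dTAG-13, with 8 of 8 kept higher in dTAG-13 at 7 d, opposite in direction to the p53 target genes there. Genes with high GC content were lower than genes with low GC content in each of these comparisons. At 7 d the median log2 ratio was -0.15 in the genes richest in GC (upper quartile) and 0.11 in the poorest (lower quartile). Primitive endoderm markers moved in the same direction as the target genes in the washout: 8 of 8 were higher in dTAG-13 than in DMSO at 15 d (median 0.84, 2 past 2-fold) and 8 of 8 lower in Recovery than in dTAG-13 (median -1.09, 6 past 2-fold), with sums of 1556, 2704 and 1248 in DMSO, dTAG-13 and Recovery. In the time course 8 of 8 of them were higher with dTAG-13 at 24 h and 4 of 7 at 7 d. Trophoblast markers were higher in 1 of 6 kept at 15 d and in 5 of 6 in Recovery against dTAG-13, and with dTAG-13 in 0 of 4 at 24 h and 4 of 5 at 7 d. The part of these markers and of GC content in the values of the target genes was not tested.

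**Figure D2:**
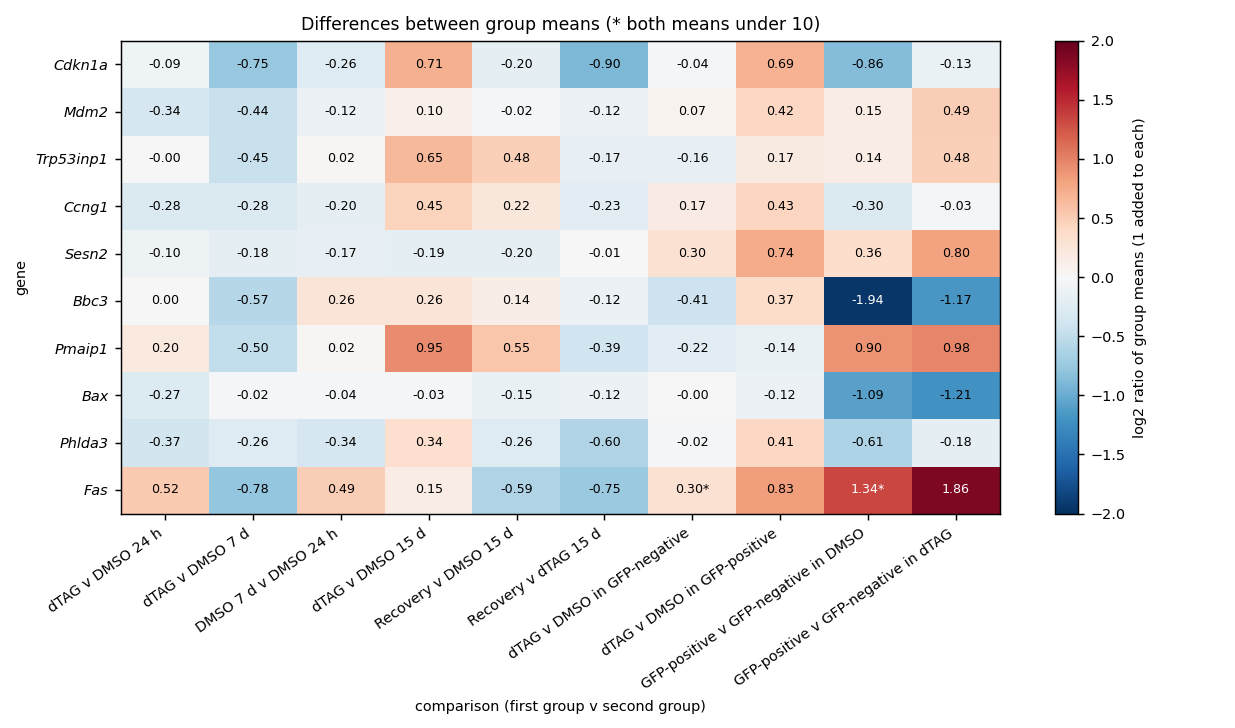
Log2 ratios of group means (1 added to each) for the 10 p53 target genes (rows) in the 10 comparisons of group means (columns), from -2 in blue to 2 in red. The column of dTAG-13 against DMSO at 7 d is below 0 in all rows, the 15 d column is above 0 in 8, and the largest drops are those of Bbc3 and Bax in GFP-positive against GFP-negative cells.

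In the sorting experiment the death genes separated. In DMSO, GFP-positive 2CLCs had lower means than GFP-negative mESCs for Bbc3, with 119 against 458 normalized counts and a log2 ratio of -1.94, and for Bax, with 185 against 396 and a ratio of -1.09. Pmaip1 was on the other side, with 3694 in 2CLCs and 1976 in mESCs, a ratio of 0.90. With dTAG-13 the same contrast gave -1.17 for Bbc3 (153 and 345), -1.21 for Bax (170 and 395) and 0.98 for Pmaip1 (3347 and 1699). The effector Bax and the BH3-only gene Bbc3 were thus lower in 2CLCs, and the BH3-only gene Pmaip1 higher, in both treatments and under each scaling. GC content moved with this contrast too: in DMSO the median log2 ratio was -0.24 in the genes richest in GC and 0.16 in the poorest, the widest such gap of the 10 comparisons of group means, and in dTAG-13 it was -0.12 and 0.04. Bbc3 (65.2% GC) and Bax (63.5%) are the richest in GC of the 10 genes and Pmaip1 (42.1%) is among the poorer, and the part of GC content in their values was not tested.

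Pluripotency markers were lower in 2CLCs as well (9 of 10 in DMSO and 8 of 10 in dTAG-13, medians -1.03 and -0.75), and primitive endoderm markers higher (7 of 8 in each, medians 0.96 and 1.3). Of the trophoblast markers kept, 3 of 5 in DMSO and 4 of 5 in dTAG-13 were higher. Bbc3 and Bax passed 2-fold in both contrasts, where 9.42% of genes in DMSO and 7.55% in dTAG-13 did so downward. Fas passed 2-fold upward in dTAG-13, at 13.5 in 2CLCs and 3.0 in mESCs. It was kept there only because its 2CLC mean was over 10. In DMSO both of its means were under 10 (7.2 and 2.2). The GFP-positive cells differ from GFP-negative ones in many genes. Of the genes kept, 2 of 9 in DMSO and 3 of 10 in dTAG-13, Fas among these 3, passed 2-fold. These shares lie near the 26.4% and 23.6% of all genes that did so in either direction.

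Among the arrest, feedback and stress genes, Cdkn1a was lower in DMSO 2CLCs than in DMSO mESCs (514 and 935, a log2 ratio of -0.86) and closer to the mESC mean with dTAG-13 (832 and 908, a ratio of -0.13). Phlda3 followed the same order, with ratios of -0.61 and -0.18. Sesn2 was higher in 2CLCs, with 1135 against 886 in DMSO and 1902 against 1089 in dTAG-13, ratios of 0.36 and 0.80 (0.20 and 0.40 with equal totals). Mdm2 and Trp53inp1 lay at 0.15 and 0.14 in DMSO, values that became -0.01 and -0.01 with equal totals, and at 0.49 and 0.48 in dTAG-13, which became 0.09 and 0.07. Ccng1 lay at -0.30 and -0.03, the second of which was -0.435 with equal totals and 0.01 when centred on the median gene.

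Within the sorted populations the degrader went with little difference in mESCs and with higher means in 2CLCs. In GFP-negative cells 3 of the 9 genes kept were higher with dTAG-13, where 51.0% of genes were, and the median log2 ratio was -0.02, with Bbc3 lowest at -0.41 and Sesn2 highest at 0.30. In GFP-positive cells 8 of 10 were higher, where 50.9% of genes were, with a median of 0.41. There Sesn2 was at 0.74, Cdkn1a at 0.69, Ccng1 at 0.43, Mdm2 at 0.42, Phlda3 at 0.41, Bbc3 at 0.37 and Trp53inp1 at 0.17. Fas was at 0.83 (7.2 in DMSO, 13.5 in dTAG-13), kept only through its dTAG-13 mean. Pmaip1, at -0.14, and Bax, at -0.12, were the 2 that were lower. No gene of the 10 passed 2-fold in either population, where 8.51% and 9.03% of genes did.

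The 2CLC groups moved most with the scaling. The sum of the gene means was 11520046 in dTAG 2CLCs against 9737054 in DMSO 2CLCs, and 8706492 and 8750232 in the mESC groups. Scaling the groups to equal totals moved the median of all genes in dTAG against DMSO 2CLCs from 0.01 to -0.23, and the share of genes above 0 from 50.9% to 27.6%. With equal totals 7 of 10 were above 0, Trp53inp1 having turned to -0.07, and Cdkn1a was at 0.45. For 2CLCs against mESCs the same scaling moved the median of all genes from -0.02 to -0.17 in DMSO and from -0.04 to -0.44 in dTAG-13, and the share above 0 from 48.7% to 40.2% and from 47.4% to 28.6%. Cdkn1a then passed 2-fold in DMSO, at -1.02, and was at -0.53 in dTAG-13. The fibroblast sum was 7749 and 9613 in the GFP-negative and 4822 and 8689 in the GFP-positive groups, in DMSO and dTAG-13, with 7 of 7 and 6 of 7 markers kept higher in dTAG-13, and its part in these values was not tested.

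Beside these values stood the genes of the 2-cell programme. Duxf3, the mouse Dux gene in this annotation, had 7.2 normalized counts in DMSO and 18.04 in dTAG-13 at 24 h, 7.1 and 32.7 at 7 d, and 8.7, 90.9 and 7.8 in DMSO, dTAG-13 and Recovery of the washout experiment. In the sorted cells it had 5.0 and 30.0 in GFP-negative and 511.5 and 269.9 in GFP-positive cells, in DMSO and dTAG-13. Dux is a multi-copy gene whose reads were placed at random among its copies, so its level is uncertain. The Dux mean was thus higher with dTAG-13 at 7 d, where the 10 p53 targets were lower, and at 15 d, where 8 of them were higher. At 24 h and in GFP-negative cells it was higher too, where 3 of 10 and 3 of 9 targets kept were higher. In GFP-positive cells, where its mean was largest, it was lower with dTAG-13, while 8 of 10 targets were higher. Trp53 itself had 3339 and 3803 normalized counts at 7 d, 5036 and 4840 at 15 d, and 987 and 1562 in GFP-positive cells, in DMSO and dTAG-13.

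A list of 30 further p53 targets was read beside the 10 genes. At 7 d 24 of 30 were lower with dTAG-13, with a median log2 ratio of -0.365, beside 48.6% of all genes lower, and 3 passed 2-fold, a share close to the 9.95% of all genes. All 3 were lower: Gdf15, a stress-induced cytokine, at -1.53, Rrm2b, a ribonucleotide reductase subunit, at -1.22, and Ddit4, an inhibitor of mTORC1, at -1.22. At 15 d 22 of 30 were higher (47.7% of all genes), with a median of 0.13 and none past 2-fold, and in Recovery against dTAG-13 16 of 30 were lower (45.9% of all genes). At 24 h 21 of 30 were lower (9097 of all 18451 genes kept) and Dcxr passed 2-fold, at -1.19. In Recovery against DMSO Ddit4 passed it, at 1.15.

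In the sorted cells 5 of 30 of the same list passed 2-fold between 2CLCs and mESCs in DMSO and 6 of 29 in dTAG-13, shares below the 26.4% and 23.6% of all genes. In DMSO 11 of 30 were higher in 2CLCs than in mESCs, with Plk2, a polo-like kinase, at 1.94, and 19 lower (9390 of all 18303 genes kept), with Perp, a desmosome gene, at -2.03, Pidd1 at -1.20, Gdf15 at -1.17 and Psrc1 at -1.15. In dTAG-13 11 of 29 were higher, Ddit4 at 1.18 and Plk2 at 1.16, both under 2-fold with equal totals (0.77 and 0.75), while Rprm, Perp, Pidd1 and Ptprv passed 2-fold downward, at -1.70, -1.35, -1.15 and -1.005. With the degrader Plk2 and Rprm were at 1.26 each in GFP-negative cells, and none passed 2-fold in GFP-positive cells.

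Of 15 regulators of p53, 14 were kept. Trp73, which encodes the p53 relative p73, was lower with dTAG-13 at 7 d, at -1.22, and lower in 2CLCs than in mESCs, at -1.19 in DMSO and -0.99 in dTAG-13. Cdkn2a, the gene of p16 and of the MDM2 inhibitor ARF, had 84.6, 226 and 107 normalized counts in DMSO, dTAG-13 and Recovery of the washout experiment, a log2 ratio of 1.41 for dTAG-13 against DMSO and -1.07 for Recovery against dTAG-13. At 7 d its ratio was 0.96, with 57.6 in DMSO and 113 in dTAG-13. No other regulator passed 2-fold. Mdm4, the MDM2 relative that also restrains p53, had 9767 in DMSO and 5643 in dTAG-13 at 7 d, a ratio of -0.79, and ratios of -0.87 and -0.84 for 2CLCs against mESCs in DMSO and dTAG-13, which were -1.03 and -1.25 with equal totals.

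In the Dppa4 experiment none of the 10 genes passed the test for UNC0638 against DMSO in WT cells. limma called 0 of 17258 genes there, with 1504 (8.71%) at an unadjusted p under 0.05, of which none was among the 10. edgeR called 0 genes and DESeq2 15 at an adjusted p under 0.05, again none of the 10. Cdkn1a had 1867, 2189 and 2507 normalized counts in the DMSO libraries of WT and 1383, 1882 and 1969 in the UNC0638 libraries, which overlap. The deviations of WT libraries of the same replicate number correlated at 0.246, 0.103 and 0.431, weakly for number 2. These libraries are read as pairs here, from the data and not the labels. Between them 6 of the 10 genes differed in 1 direction in 3 of 3 pairs, Cdkn1a, Sesn2, Bax and Phlda3 lower and Mdm2 and Pmaip1 higher in UNC0638, beside 47.2% of all genes. With the pairs as a replicate block none of the 10 passed, the lowest adjusted p in limma being 0.382, for Cdkn1a. Without it the log2 fold change of Cdkn1a on the log2(normalized count + 1) scale was -0.33 (SE 0.19, 95% interval -0.735 to 0.07, adjusted p = 0.586). Pmaip1 was the gene of the 10 whose libraries did not overlap, with 184, 251 and 196 in DMSO and 291, 280 and 280 in UNC0638, where 9.86% of genes lay apart in this direction. For Pmaip1 the fold change was 0.45 (SE 0.26, 95% interval -0.10 to 0.99, adjusted p = 0.588), an interval that spans 0 and reaches close to 2-fold.

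In KO cells none of the 10 passed the test for UNC0638 either, where limma called 80 genes of 17258 past 2-fold (0.464%) and 101 at an adjusted p under 0.05 (0.585%). Ccng1 had 987, 895 and 1602 normalized counts in DMSO and 1757, 2640 and 1473 in UNC0638, which overlap, with a log2 fold change of 0.76 (SE 0.26, adjusted p = 0.177). Sesn2 had 2299, 2228 and 1925 in DMSO and 1809, 1677 and 1613 in UNC0638, every treated library being the lower, where 8.03% of genes lay apart downward. Its fold change was -0.34 (SE 0.15, adjusted p = 0.305). These were the 2 genes of the 10 at an unadjusted p under 0.05, which 15.4% of all genes had. The other 8 lay between -0.31 and 0.87, with adjusted p-values of 0.457 to 1.0.

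The difference between the UNC0638 effects in KO and in WT was tested directly and passed for none of the 10, nor for any of 17258 genes in limma, with 1076 (6.23%) at an unadjusted p under 0.05, and 0 calls by edgeR and by DESeq2. The lowest unadjusted p among the 10 was that of Pmaip1, at 0.0563 in limma, with a difference of -0.75 (95% interval -1.52 to 0.02, adjusted p = 0.775). For Cdkn1a the difference was 0.02 (95% interval -0.547 to 0.59), and for Mdm2 it was -0.08 (-0.653 to 0.49).

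**Figure D3:**
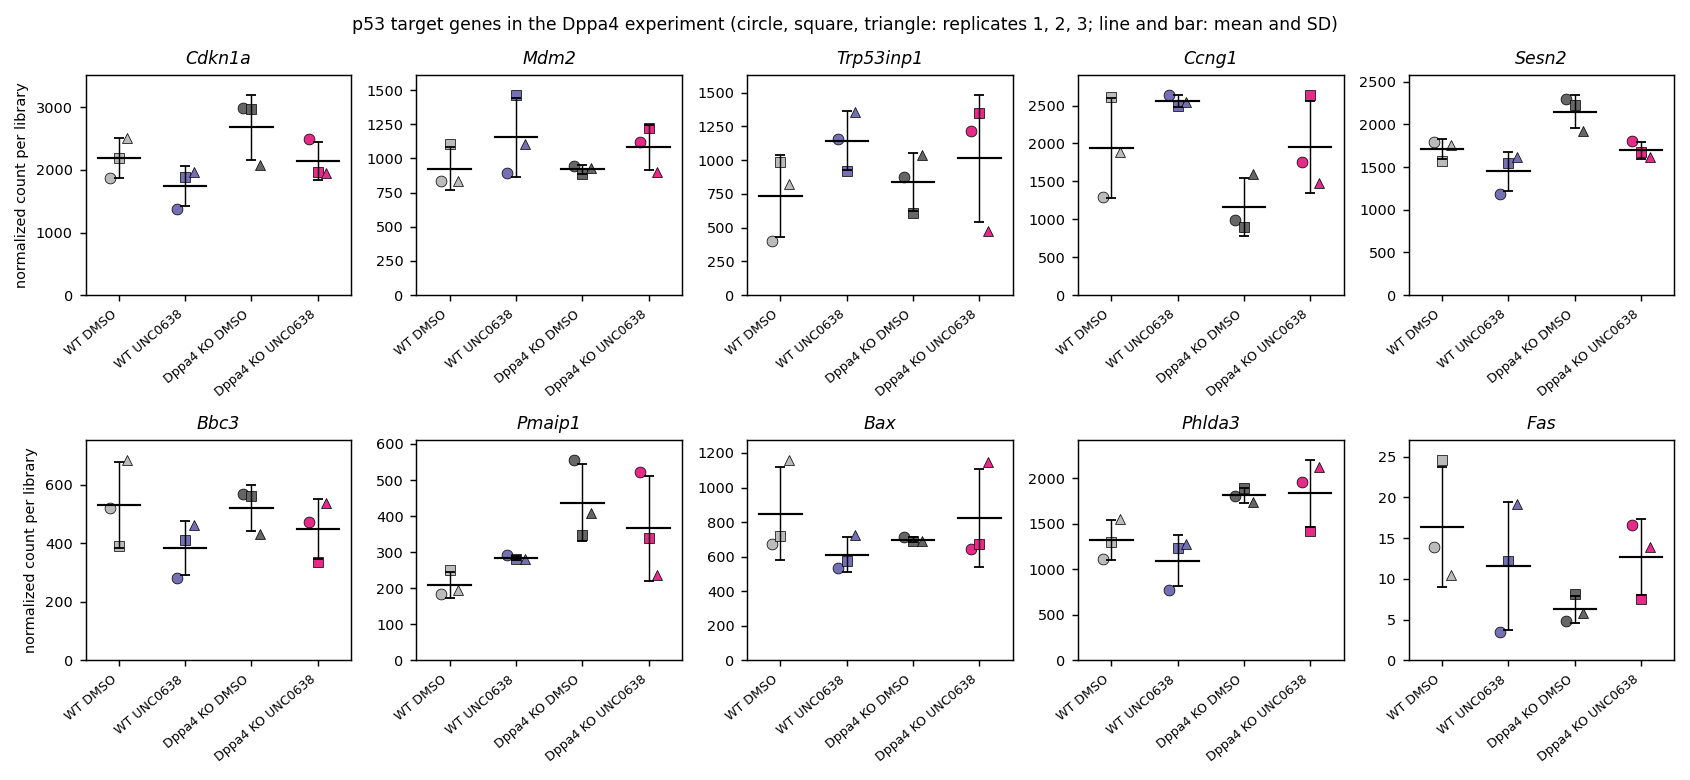
Normalized counts per library (vertical axis) of the 10 p53 target genes in the 4 groups of the Dppa4 experiment. Circles, squares and triangles are replicates 1, 2 and 3, and the line and bar are the mean and SD (n = 3). Pmaip1 in KO DMSO lies above all 3 WT DMSO libraries, as for 13.5% of genes. Phlda3 in KO lies above WT in both treatments (13.5% of genes in DMSO and 11.6% in UNC0638).

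Between KO and WT cells in DMSO 1 of the 10 genes passed the test and the 2-fold line, where 4.43% of genes did (6.63% by the adjusted p alone). Pmaip1, which encodes NOXA, had 184, 251 and 196 normalized counts in WT and 556, 347 and 409 in KO, a mean of 210 ± 35.8 and of 437 ± 107 (SD, n = 3). All 3 KO libraries were above all 3 WT libraries, as for 13.5% of genes. The log2 fold change was 1.04 (SE 0.26, 95% interval 0.49 to 1.59, adjusted p = 0.0253). The call was kept without KO DMSO replicate 2 or 3 (adjusted p = 0.0357 and 0.0479) and lost without any 1 of the other 4 libraries. The adjusted p was 0.0613, 0.0536 and 0.0776 without WT DMSO replicate 1, 2 or 3 and 0.128 without KO DMSO replicate 1, where the fold change was 0.95, 1.17, 0.99 and 0.85. With UNC0638 the KO libraries of Pmaip1 (523, 339 and 236) overlapped the WT ones, and the fold change between genotypes was 0.29 (SE 0.26, adjusted p = 0.566).

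Phlda3, the AKT inhibitor, had 1110, 1299 and 1555 normalized counts in WT DMSO and 1802, 1899 and 1740 in KO DMSO. All KO libraries were the higher, as for 13.5% of genes, and the log2 fold change of 0.47 (SE 0.21, adjusted p = 0.176) missed the threshold. In UNC0638 it had 773, 1232 and 1283 in WT and 1960, 1422 and 2125 in KO, again apart, as for 11.6% of genes. There it rose by 0.76 (SE 0.21, 95% interval 0.32 to 1.19, adjusted p = 0.0459), under 2-fold, at an adjusted p that 4.47% of genes passed (3.29% with 2-fold as well, and none of the 10). It missed that adjusted p in edgeR (adjusted p = 0.0504) and without the filter on low counts (0.0615), and when any 1 of 5 libraries was left out, KO UNC0638 replicate 2 being the exception, with adjusted p-values of 0.0607 to 0.181.

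Unadjusted p-values under 0.05 between the genotypes in DMSO were found for 4 of the 10 genes and for 24.1% of all genes tested. Beside Pmaip1 and Phlda3 these were Ccng1 and Sesn2. Ccng1 had 1298, 2615 and 1891 in WT DMSO and 987, 895 and 1602 in KO DMSO, which overlap, with a log2 fold change of -0.73 (SE 0.26, adjusted p = 0.103). It passed at an adjusted p of 0.037 without WT DMSO replicate 1 and of 0.0432 without KO DMSO replicate 3. Sesn2 had 1792, 1577 and 1759 in WT, all under the 2299, 2228 and 1925 in KO, apart as for 13.5% of genes upward. Its fold change was 0.33 (SE 0.15, adjusted p = 0.201).

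The other 6 genes did not pass in either treatment. Cdkn1a was at 0.28 (95% interval -0.118 to 0.685) between KO and WT in DMSO and at 0.30 (-0.0979 to 0.705) in UNC0638, with KO DMSO libraries of 2989, 2976 and 2077. Mdm2 was at 0.00 (-0.40 to 0.41) and -0.08 (-0.481 to 0.33). For both genes the intervals end inside 2-fold. Bbc3 was at -0.00 and 0.23, Bax at -0.24 and 0.39, and Trp53inp1 at 0.25 and -0.30. Fas was read too seldom to be ranked, with 10.5 to 24.6 normalized counts in WT DMSO and 4.9 to 8.2 in KO DMSO, apart as for 16.1% of genes downward, and a fold change of -1.20 (SE 0.65, adjusted p = 0.281).

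**Figure D4:**
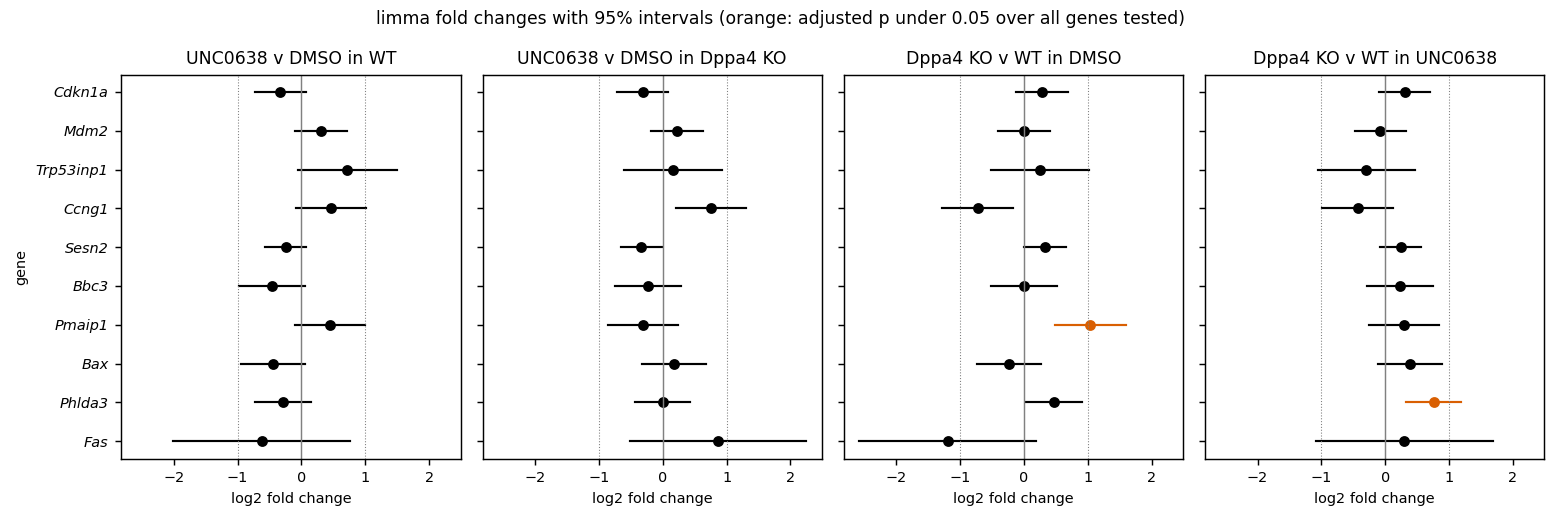
log2 fold changes from limma (horizontal axis, points) with 95% intervals (lines) for the 10 p53 target genes in 4 comparisons of the Dppa4 experiment. Orange marks an adjusted p under 0.05 over all genes tested, which holds for Pmaip1 between genotypes in DMSO and Phlda3 in UNC0638, and dotted lines mark 2-fold.

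Libraries of a group differed among themselves along an axis that several of these genes followed. An index was formed for each library as the mean log2 deviation of the genes richest in GC (54.7% and over in the longest transcript) minus that of the poorest (45.4% and under), over 15837 genes. It ran from -0.68 in WT UNC0638 replicate 1 to 0.68 in KO DMSO replicate 2. It was -0.68 to -0.24 in the UNC0638 libraries of WT and -0.08 to 0.28 in the DMSO ones, so it differed with treatment as well as within groups. Over the 12 libraries, which share a table and its size factors, Pearson's r with the index was 0.835 for Bbc3 (65.2% GC), 0.833 for Sesn2 (58.7%), 0.79 for Cdkn1a (54.4%) and 0.68 for Phlda3 (62.6%). It was -0.90 for Ccng1 (40.8%) and -0.69 for Trp53inp1 (38.8%). After removal of the group means r was 0.80 for Bbc3 and -0.85 for Ccng1. For Pmaip1 (42.1% GC) r was 0.05 over all libraries and -0.36 after removal of the group means.

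With the index as a covariate in limma, an alternative chosen after these values were seen, Pmaip1 kept its call between KO and WT in DMSO, at 1.14 (SE 0.26, adjusted p = 0.0232). Phlda3 in UNC0638 was at 0.51 (SE 0.21, adjusted p = 0.246), past the threshold no more. The difference of Cdkn1a between UNC0638 and DMSO in WT went from -0.33 to -0.05, and that of Ccng1 in KO from 0.76 to 0.27. In WT the index was lower in every UNC0638 library than in every DMSO library, so index and treatment cannot be told apart there. For UNC0638 in KO the count of genes called went from 80 to 2. KO UNC0638 replicate 3 stood farthest from its group, and without it none of the 10 was called for UNC0638 in KO, as with it, while Phlda3 between genotypes in UNC0638 was at 0.64 (adjusted p = 0.113).

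**Figure D5:**
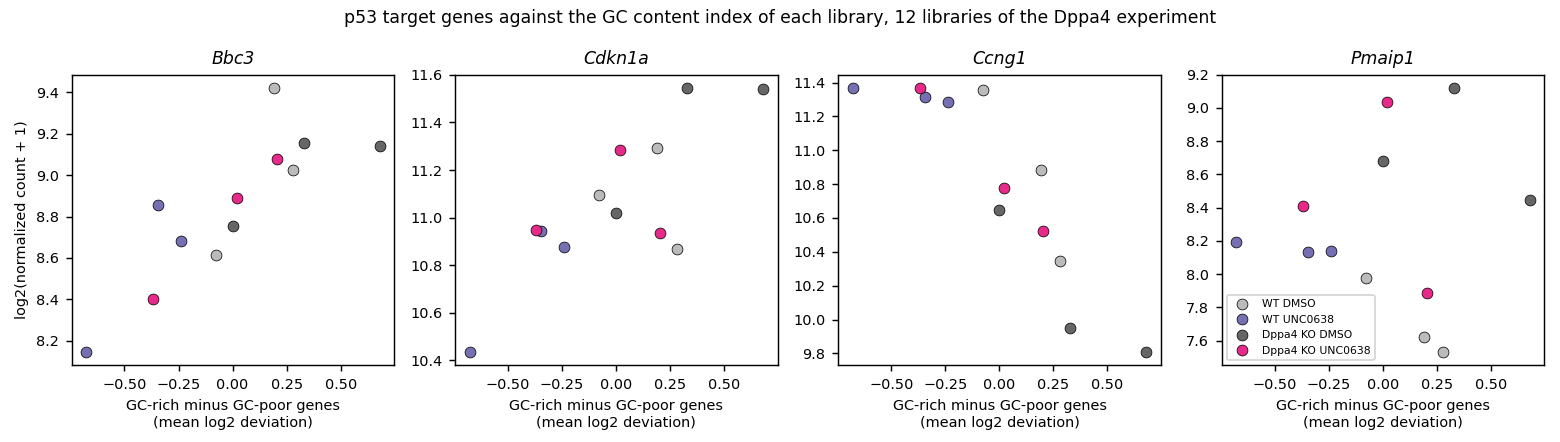
log2(normalized count + 1) of 4 p53 target genes (vertical axes) against the GC content index of each library (horizontal axis, mean log2 deviation of GC-rich minus GC-poor genes), 12 libraries coloured by group. Bbc3 and Cdkn1a run upward (r = 0.835 and 0.788), Ccng1 downward (r = -0.90), and Pmaip1 has an r of 0.05 over all libraries and -0.36 within groups.

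Markers of other cells also moved with genotype. All 8 tested fibroblast markers were lower in KO than in WT in DMSO, with a median log2 fold change of -0.80 and a sum over 10 genes of 7121 to 9732 normalized counts in WT and 6822 to 7390 in KO, and Thy1 passed at an adjusted p of 0.0228. Pluripotency markers were higher in 9 of 10 in DMSO (median 0.35) and in 10 of 10 in UNC0638 (median 0.28), Klf4 with log2 fold changes of 1.01 (adjusted p = 0.0025) and 0.71 (adjusted p = 0.0223). Trophoblast markers were lower in 4 of 5 tested in DMSO (median -1.86) and 5 of 5 in UNC0638 (median -1.73). Their sums were 899 to 1850 normalized counts in WT DMSO and 463 to 783 in KO DMSO. In UNC0638 Krt18 fell by 2.54 and Cdx2 by 3.41 on the log2 scale (adjusted p = 0.0424 and 0.028 in limma). Cdx2 was near the floor, with means of 20.4 in WT and 1.2 in KO, and Krt18 ran from 59.0 to 537 among the WT libraries. Primitive endoderm markers were lower in 4 of 6 tested in either treatment. Zscan4c, a 2-cell gene, and Duxf3 had 0 reads in all KO libraries. In WT DMSO Zscan4c had 31.4 to 622 normalized counts. Duxf3 had only 2.3 to 8.7 there, near the floor, and was not among the genes tested. The part of all these markers in the values of the p53 target genes was not tested. Of the 30 further targets, Btg2, an antiproliferative gene, and Ei24 passed the test upward in KO in both treatments, and Psrc1 in UNC0638. In DMSO Btg2 had 792 ± 180 normalized counts in WT and 1253 ± 123 in KO (SD, n = 3), a log2 fold change of 0.68 (adjusted p = 0.0416), and Ei24 had 1091 ± 121 and 1703 ± 176, a fold change of 0.64 (adjusted p = 0.0243). In UNC0638 the fold changes were 0.76 for Btg2, 0.81 for Ei24 and 0.79 for Psrc1 (adjusted p = 0.0325, 0.0094 and 0.00714). None of the list passed downward. The 2 of 30 in DMSO and 3 of 30 in UNC0638 stand beside 6.63% and 4.47% of all genes at that adjusted p. In DMSO 20 of 30 and in UNC0638 21 of 30 were above 0, beside 8270 and 8129 of the 17258 genes tested, with medians of 0.28 and 0.22.

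Among the regulators Cdkn2a fell by 1.49 on the log2 scale in KO DMSO (adjusted p = 0.00987), from 110 ± 8.5 to 39.0 ± 7.6 normalized counts (SD, n = 3), and did not pass in UNC0638, with 87.8 ± 19.2 in WT and 67.3 ± 18.9 in KO. Trp53 had 2037 ± 98.1 in WT DMSO, 1666 ± 73.1 in WT UNC0638, 1897 ± 175 in KO DMSO and 1516 ± 484 in KO UNC0638. UNC0638 called no further target and no regulator in either genotype, the largest log2 fold changes being those of Rrm2b in WT (1.44, adjusted p = 0.563) and Atr in KO (-1.26, adjusted p = 0.19).

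Per kilobase of exon, with all annotated exons of a gene joined, the 10 genes spread over a range of levels in WT DMSO cells. Phlda3 was highest, at 847 ± 143 normalized counts per kb (SD, n = 3), followed by Cdkn1a (616 ± 90.0), Ccng1 (551 ± 188), Bax (539 ± 171) and Sesn2 (492 ± 33.3), whose ranges of mean ± SD overlapped from each to the next. Bbc3 (251 ± 69.4), Mdm2 (182 ± 30.9), Trp53inp1 (114 ± 46.7) and Pmaip1 (76.9 ± 13.1) formed a lower run that also overlapped from each to the next and lay apart from Sesn2 above and from Fas (7.93 ± 3.57) below. In the group means of EHMT2-dTAG cells at 7 d of DMSO the order was Ccng1 (1880), Trp53inp1 (1340), Pmaip1 (925), Cdkn1a (795), Mdm2 (787), Phlda3 (727), Sesn2 (677), Bbc3 (433), Bax (417) and Fas (8.08) per kb. The lines, kits and scales of these experiments differ, so levels cannot be compared between them. Reads across introns were not aligned, a loss that can differ between genes, so the order within a group is uncertain too. That order also rests on the length used. The joined exons of Cdkn1a hold 3553 bases and its longest transcript 2080, against 1559 and 1435 for Phlda3.

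Over the 12 libraries of the Dppa4 experiment the 5 tested genes whose values ran most like those of Cdkn1a were Palm (Pearson's r = 0.956), Creld1 (0.956), Mfsd12 (0.946), 4930404N11Rik (0.941) and Fuz (0.937), none of which is in the lists of p53 targets. Among the 10 genes Sesn2 was nearest to Cdkn1a (r = 0.893), then Phlda3 (0.756) and Bbc3 (0.727), while Ccng1 ran against it (-0.669). These are descriptions over libraries that differ in group and in the GC index.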

How the data were processed

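RNA-seq libraries were made by poly-A selection. Per the submitters' processing notes and methods, the authors trimmed reads with Trim Galore 0.6.7, aligned them to mm10 with STAR 2.7.10 (multimapping reads kept at 1 random place, introns not allowed, so spliced reads were lost), counted them with TEcounts on GENCODE vM25, and divided counts by DESeq2 1.34.0 size factors. The deposited signal values are these normalized counts, given by the authors as group means for 3 experiments and per library for the Dppa4 experiment. The tests planned per library could therefore not be run for those 3 experiments. Whole reads were recovered from 100% of the Dppa4 values (tolerance 0.01), and 0 value columns lacked a sample or group. The authors' tables of comparisons (fold changes and p-values) and of repeats were not used.

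Group means were compared as log2 ratios with 1 added, over genes with a mean of at least 10 in either group. Dppa4 libraries were tested with limma 3.58.1 (trend, R 4.3.3) on log2(normalized count + 1) over 17258 of 55401 genes kept by filterByExpr of edgeR 4.0.16, all 4 groups in 1 fit, with Benjamini-Hochberg adjustment over these genes. A gene was called at an adjusted p under 0.05 and 2-fold. In WT the deviations of same-numbered DMSO and UNC0638 libraries correlated at 0.246, 0.103 and 0.431, so there the numbers were taken as pairs, from the data and not the labels, and the blocked value is given too. p-values measure the spread between libraries labelled as replicates. On simulated counts of UNC0638 against DMSO in WT (16694 genes, dispersion 0.05), 200 of the better expressed genes were changed 2-fold. At an adjusted p under 0.05, without the 2-fold line, 48% of them were recovered, with 5 false calls. Every simulated gene had this same dispersion and was drawn independently, without the GC index differences of the real libraries. These figures therefore do not give the recovery or false calls in the real data. Recovery under the full rule for a call was not measured. edgeR and DESeq2 1.42.0 on recovered reads were alternatives. Coordinates and GC content came from GENCODE vM21 (GRCm38), promoter sequences from RefSeq.

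The 10 genes and the lists of further targets, regulators and markers were chosen with earlier results of these data known. Each of the 10 is named. Genes of the wider lists are named where called or past 2-fold, or among the 3 with the largest difference. Where other genes are named, they were chosen after their values were seen.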

Additional observations from a re-analysis of the deposited data

How the results depend on the processing

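No result changed direction with a call under any alternative run. Among the 10 genes the count called between KO and WT in DMSO was 1, and leaving out each replicate in turn gave 0 to 1. At 15 d of dTAG-13 against DMSO, 0 genes passed 2-fold as deposited and 1 (Pmaip1) with group means rescaled to equal totals. The counts were the same in 77 of 81 alternatives of the Dppa4 experiment. For the group means they were the same, or within a tolerance of the main count, in 39 of 40. That tolerance took in 2CLCs against mESCs, where Cdkn1a also passed 2-fold in DMSO with equal totals (-1.02). In dTAG-13 Pmaip1 also passed it there when centred on the median gene (1.02). Counts over all genes moved more. UNC0638 in KO called 80 genes, but 12 without the filter, 37 by edgeR, 245 by DESeq2 and 2 to 373 with a library left out. In WT DESeq2 called 13 and limma 0. Between genotypes, leaving out a library gave 280 to 901 calls in DMSO (765 with all) and 177 to 495 in UNC0638 (567 with all), where DESeq2 called 854. With the GC index as a covariate, chosen after seeing the data, 263 were called in UNC0638.

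Replicate numbers were checked for pairing by the correlation of same-numbered deviations between treatments, which was over 0.1 for all pairs in WT but 0.154, -0.0923 and 0.0129 in KO, so the numbers were taken to pair the libraries in WT and not in KO. The replicate block was still run on every contrast. It paired by number within each genotype for UNC0638, and by number across WT and KO for genotype. Neither the KO pairing nor that between genotypes rests on the labels or on this check. With the block the 10 genes gave the same counts, 1 between KO and WT in DMSO and 0 for UNC0638 in either genotype. Calls over all genes went from 80 to 155 for UNC0638 in KO. For genotype they went from 765 to 1021 in DMSO and from 567 to 753 in UNC0638.

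Group means carry no error, so the 3 experiments given that way show order and size only. Fas, with 3.5 to 24.6 normalized counts per library, is limited by depth.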
